A study of Homo sapiens with 6 samples.

Results

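The genes of G2 and mitosis described here are 52 genes that cells need to enter mitosis, attach and separate their chromosomes and divide. They were chosen by gene symbol, and all 52 were found among the 58735 gene rows measured. By role they comprise 8 genes of mitotic entry (cyclins, CDK1 and their regulators), 5 of the spindle checkpoint, 3 of the anaphase-promoting complex and chromosome separation, 6 of the centromere and kinetochore, 4 of the chromosomal passenger complex, 8 kinesins, 7 of condensin and chromosome structure, 8 other spindle and microtubule proteins, and 3 of cytokinesis.

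The RNA came from T24, a human cell line established from a urothelial carcinoma of the bladder, labelled WT in genotype and grown with 10% fetal bovine serum. In 3 libraries the cells had been given TGF-β1, a secreted cytokine, at 10 ng/ml for 48 h, and 3 control libraries came from cells without it, all taken on day 2. The labels do not state separate cultures for the libraries of a group, and the p-values therefore measure the spread between these libraries alone, which may be technical. A single cell line was used, and no measure of cell number or cell cycle phase was analysed here.

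Cyclin B with its kinase CDK1 drives cells into mitosis, where condensin folds the chromosomes and kinesins and microtubule proteins build the spindle. The spindle checkpoint holds the anaphase-promoting complex inactive until kinetochores are attached, after which cyclin B and securin are destroyed, the chromosomes separate and the cell divides. Transcripts of these genes are low in G1 and accumulate together in G2 and mitosis, so their level in a culture follows the share of cells in those phases. The DREAM complex represses many of them through the cell cycle genes homology region (CHR) of their promoters, and B-MYB and FOXM1 activate them. In untransformed epithelial cells TGF-β is known to arrest the cycle in G1 through CDK inhibitors and loss of MYC, a response that many carcinoma cells have lost.

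Of the 52 genes, 44 had a promoter in the RefSeq table used (GRCh38.p14, 250 bases before to 50 after the annotated start, 56 windows). AURKA, BIRC5, BUB3, FOXM1, RACGAP1, TPX2, TTK and UBE2C were not among them. The letters TTTGAA of the CHR, read on either strand, were found in 36 of the 56 windows (64.3%), against 15.2% of all 35116 windows in the table. The CCAAT box, bound by NF-Y, was searched as CCAAT on either strand and lay in 38 windows (67.9%), against 34.6% of all windows. Both motifs lay in 27 windows (48.2%), against 5.90% of all windows. A match of letters is a description of the sequence and not a bound site.

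Shown here are 6 promoters, those of the 3 genes with the highest and the 3 with the lowest log2 change (TGF-β1 over control) among genes with a single window and at most 50% of their exon bases shared with another gene, to set the promoter letters of both ends of the range side by side. Each runs 5′ to 3′ on its gene's strand with the motif letters in capitals: TTTGAA or its complement TTCAAA, and CCAAT or its complement ATTGG. ANLN lies at chr7:36389612-36389911, plus strand, ASPM at chr1:197146620-197146919, minus strand, and NCAPG at chr4:17810729-17811028, plus strand. PLK1 lies at chr16:23678639-23678938, plus strand, CENPA at chr2:26785806-26786105, plus strand, and CDC20 at chr1:43358731-43359030, plus strand.
ANLN: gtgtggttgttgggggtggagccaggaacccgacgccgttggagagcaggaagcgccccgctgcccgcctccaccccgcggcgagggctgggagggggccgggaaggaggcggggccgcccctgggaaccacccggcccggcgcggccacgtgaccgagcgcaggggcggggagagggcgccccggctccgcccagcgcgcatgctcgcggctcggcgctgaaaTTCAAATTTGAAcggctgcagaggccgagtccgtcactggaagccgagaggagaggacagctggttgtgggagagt
ASPM: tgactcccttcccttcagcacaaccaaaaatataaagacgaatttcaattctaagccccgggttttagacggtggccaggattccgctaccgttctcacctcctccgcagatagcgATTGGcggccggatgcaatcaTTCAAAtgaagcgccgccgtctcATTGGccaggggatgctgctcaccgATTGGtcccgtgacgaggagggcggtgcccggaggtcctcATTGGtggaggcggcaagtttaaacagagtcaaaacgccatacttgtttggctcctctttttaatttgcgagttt
NCAPG: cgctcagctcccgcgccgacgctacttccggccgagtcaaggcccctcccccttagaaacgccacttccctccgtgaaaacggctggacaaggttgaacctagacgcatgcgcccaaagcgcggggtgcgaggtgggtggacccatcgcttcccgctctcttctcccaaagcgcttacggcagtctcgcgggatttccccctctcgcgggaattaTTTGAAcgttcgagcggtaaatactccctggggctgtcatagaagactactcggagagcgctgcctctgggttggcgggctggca
PLK1: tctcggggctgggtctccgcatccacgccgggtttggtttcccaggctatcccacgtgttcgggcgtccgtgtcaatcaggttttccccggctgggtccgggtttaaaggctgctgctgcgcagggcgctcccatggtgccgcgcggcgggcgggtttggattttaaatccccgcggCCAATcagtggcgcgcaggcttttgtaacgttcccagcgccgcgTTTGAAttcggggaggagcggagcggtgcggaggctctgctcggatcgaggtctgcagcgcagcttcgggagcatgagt
CENPA: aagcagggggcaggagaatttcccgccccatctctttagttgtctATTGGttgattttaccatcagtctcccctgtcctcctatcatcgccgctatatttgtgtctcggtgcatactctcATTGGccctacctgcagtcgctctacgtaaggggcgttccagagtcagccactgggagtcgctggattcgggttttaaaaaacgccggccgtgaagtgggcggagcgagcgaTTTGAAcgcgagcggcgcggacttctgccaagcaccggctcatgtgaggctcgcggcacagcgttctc
CDC20: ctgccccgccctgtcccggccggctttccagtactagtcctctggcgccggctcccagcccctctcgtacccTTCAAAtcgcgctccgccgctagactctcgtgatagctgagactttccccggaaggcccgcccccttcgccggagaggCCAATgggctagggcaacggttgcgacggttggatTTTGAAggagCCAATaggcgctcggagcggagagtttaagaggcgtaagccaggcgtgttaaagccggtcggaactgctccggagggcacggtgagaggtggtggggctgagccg
The CHR letters nearest the start began 20 bases before it in ANLN, 113 in ASPM, 35 in NCAPG, 29 in PLK1, 18 in CENPA and 65 in CDC20. In ANLN the 2 matches abut and read as a palindrome. The CHR letters were thus present in all 6 promoters shown. Among genes with more than 1 window, AURKB (log2 change -0.13) and CDC25B (-0.061) lay below PLK1 and had no CHR match. SMC2 (0.44) lay above ANLN and had a match in 1 of its 2 windows. NUSAP1 (-0.057), left out for its shared exons, had a match. Over the genes with a promoter, the median log2 change was 0.23 in the 32 with a CHR match (range -0.057 to 0.44) and 0.20 in the 11 without (range -0.13 to 0.34). It was 0.21 in the 32 with a CCAAT match (range -0.13 to 0.41) and 0.31 in the 11 without (range 0.14 to 0.44). Neither difference was tested.

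Between 53591796 and 60200816 reads were sequenced in each library and 93.52 to 95.47% of them mapped, and 20703945 to 23678772 fragments per library were assigned to uniquely named genes. The cells responded to the cytokine: PMEPA1, a direct SMAD target, had 75.3, 63.6 and 66.2 FPKM in TGF-β1 libraries 1, 2 and 3, against 15.2, 14.6 and 12.4 FPKM in control libraries 1, 2 and 3, and all 6 TGF-β target genes checked rose. These 6 were chosen with earlier results of these data known, so their number is not independent of the data. Of 15 urothelial and epithelial markers 6 reached 1 FPKM in at least 3 libraries, with KRT8 and KRT18 the most abundant, while CDH1, EPCAM and GATA3 stayed below 1 FPKM and KRT5, KRT19 and UPK3A had 0 fragments in all 6 libraries. The summed level of the 15 was 411 to 442 FPKM in TGF-β1 libraries and 475 to 642 FPKM in control libraries, and the part of this difference in the results below was not tested. No marker of fibroblasts (6), leukocytes (5) or endothelium (3) reached 1 FPKM in 3 libraries, and the highest sum of these lists in a library was 0.745 FPKM.

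Control library 3 stood apart from the other controls before any mitosis gene is considered. The correlation (Spearman, across all genes tested) between a gene's deviation from its mean over the 6 libraries and the GC content of its transcripts was 0.70 and 0.60 in control libraries 1 and 2 but -0.40 in control library 3, whose sign was that of TGF-β1 libraries 1, 2 and 3 (-0.14, -0.54 and -0.60). Counts are therefore also given without control library 3 and after a trend on transcript GC content and length was subtracted in each library.

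FPKM, the fragments of a gene scaled to transcript length and to the library's depth, were tested as log2(FPKM + 1) with limma over the 11363 genes that reached 1 FPKM in at least 3 libraries, with p-values adjusted by Benjamini-Hochberg over all of them and a threshold of 0.05. A log2 change is TGF-β1 over control on that scale, which understates the change of genes near 1 FPKM. Of the 52 mitosis genes 51 entered the test, each of them above 1 FPKM in all 6 libraries and with at least 193 fragments in each. PRC1, a microtubule bundler of the central spindle, was the 1 gene left out, at 0.181 ± 0.133 FPKM with TGF-β1, against 0.159 ± 0.0341 FPKM in controls (SD, n = 3 each).

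None of the 51 mitosis genes passed the threshold in either direction by limma, against a background of 1.14% of all genes called higher and 1.29% called lower. At an unadjusted p below 0.05, 23 were higher and 0 lower, against a background of 11.2% and 13.9%. Changes were small: log2 changes ran from -0.21 for UBE2C to 0.44 for SMC2, ratios of the mean FPKM from 0.862 to 1.39, and adjusted p-values from 0.059 to 0.98. The 95% intervals of all 51 lay inside a 2-fold change in either direction, and those of 23 left out 0. By the test on recovered fragments (voom) 8 passed, all higher: SMC2, SMC4, NCAPG, TOP2A, ASPM, ANLN, CENPE and CENPF, against a background of 3.51%.

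The sign of the change was positive in 43 of the 51 genes, against 52% of all genes tested, with a median log2 change of 0.22 in mitosis genes and 0.012 in all genes. The 3 TGF-β1 libraries all lay above the 3 controls in 24 genes (background 14.6%) and all below them in 0 genes (background 12.5%). The summed FPKM of the mitosis genes was 1895, 1972 and 2039 in TGF-β1 libraries 1, 2 and 3, against 1757, 1847 and 1833 in control libraries 1, 2 and 3, so the sums did not overlap between groups. In RNA from a whole culture, more cells in G2 and mitosis and more RNA per such cell cannot be told apart. The part of the libraries' GC trend in these differences was not tested.

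**Figure D1:**
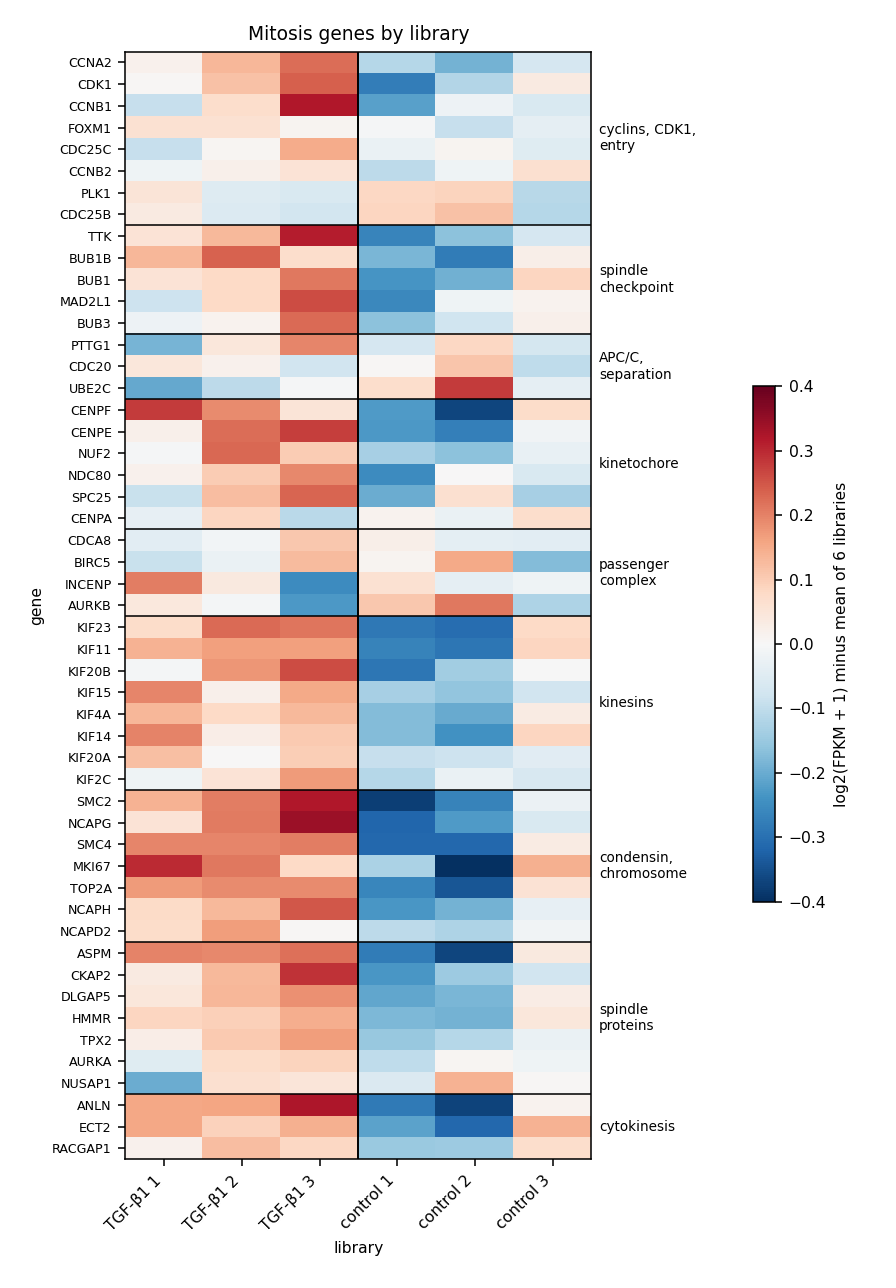
Level of the 51 tested mitosis genes in each library, as log2(FPKM + 1) minus the gene's mean over the 6 libraries (colour), with genes in rows grouped by role and TGF-β1 libraries left of control libraries. In most rows controls 1 and 2 are below the mean and control 3 lies near it, with 35, 45 and 44 of 51 genes above their mean in TGF-β1 libraries 1, 2 and 3, against 9, 12 and 22 in control libraries 1, 2 and 3.

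Without control library 3, 26 mitosis genes rose and 0 fell, against a background of 12.8% of all genes called higher and 16.8% called lower. These shares are also the background for every count of calls without control library 3 given below. The 26 had log2 changes of 0.22 to 0.56 in that comparison and came from 7 of the 9 role groups. Their transcripts had 34.1 to 48.6% GC, and the 10 mitosis genes above 50% GC were not among them. Controls 1 and 2 had GC correlations of opposite sign to all TGF-β1 libraries, so GC content and treatment cannot be told apart there. Across tested genes with a gene model, log2 change correlated with GC content at -0.69 (Spearman), beside -0.63 with control library 3 kept. The TGF-β1 libraries all lay above controls 1 and 2 in 35 of the 51 mitosis genes (background 30.8%) and all below them in 4 (background 30.2%). Control library 3 lay above both other controls in 34 of the 51 mitosis genes and below both in 9, whereas over all genes tested these shares were 41.5% and 42.2%. The median deviation of the mitosis genes from their means was 0.045, 0.096 and 0.15 (log2) in TGF-β1 libraries 1, 2 and 3, against -0.17, -0.14 and -0.016 in control libraries 1, 2 and 3. Control library 3 thus stood between the other controls and the TGF-β1 libraries.

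**Figure D2:**
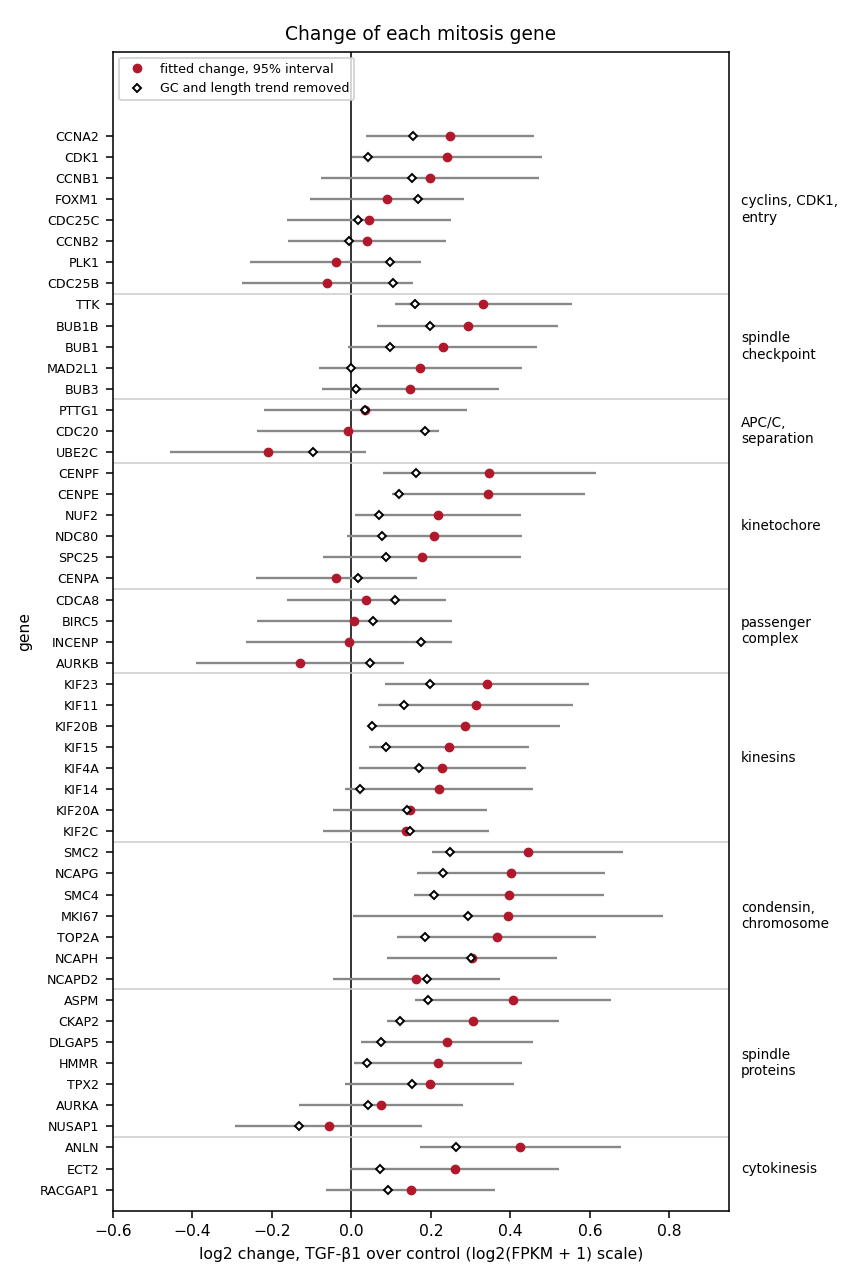
Log2 change, TGF-β1 over control, of each tested mitosis gene (red points, lines are 95% intervals from limma, n = 3 each), grouped by role and sorted within each group, with the change after removal of the GC and length trend as open diamonds. The points run from -0.21 (UBE2C) to 0.44 (SMC2), and the diamonds of SMC2, ANLN, ASPM and CENPE, all with GC-poor transcripts, lie closer to 0 than their points. Among genes above 50% GC, the diamonds of CDC20, INCENP, FOXM1 and CDCA8 lie further from 0 than their points. Those of AURKB and UBE2C, also above 50% GC, lie closer to 0.

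Condensin and chromosome structure had the highest median of the 9 role groups, a median log2 change of 0.39 over 7 genes, all of them positive and 0 past the threshold. Condensin is the ring complex that compacts mitotic chromosomes, and SMC2 and SMC4 are its ATPase arms. SMC2 (chr9:104094260-104141417, plus strand in GENCODE release 29 on GRCh38) had 13.6, 14.2 and 15.5 FPKM in TGF-β1 libraries 1, 2 and 3, against 9.19, 10.0 and 12 FPKM in control libraries 1, 2 and 3, so every TGF-β1 library lay above every control (log2 change 0.44, 95% interval 0.20 to 0.68, adjusted p = 0.059). Without control library 3 SMC2 rose (log2 change 0.54, adjusted p = 0.0083). SMC4, its partner, had 15.4, 15.4 and 15.5 FPKM in TGF-β1 libraries 1, 2 and 3, against 10.5, 10.5 and 13.6 FPKM in control libraries 1, 2 and 3, again without overlap (log2 change 0.40, adjusted p = 0.078).

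The non-SMC subunits of condensin I, which bridge and regulate the ring, gave less uniform values. NCAPG (chr4:17810902-17844862, plus strand) had 17.9, 20.1 and 22.1 FPKM in TGF-β1 libraries 1, 2 and 3, against 13.6, 14.6 and 16.5 FPKM in control libraries 1, 2 and 3 (log2 change 0.40, 95% interval 0.16 to 0.64, adjusted p = 0.075). The groups did not overlap, and control library 3 was the highest control. NCAPH, the kleisin that closes the ring, had 34.0, 35.3 and 38.4 FPKM in TGF-β1 libraries 1, 2 and 3, against 27.3, 28.1 and 31.4 FPKM in control libraries 1, 2 and 3 (log2 change 0.30, adjusted p = 0.11). NCAPD2, another regulatory subunit, differed least of the group, at 84.2 ± 4.78 FPKM with TGF-β1, against 75.0 ± 3.10 FPKM in controls (SD, n = 3 each; log2 change 0.16, adjusted p = 0.29).

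MKI67 encodes Ki-67, the coat protein of mitotic chromosomes that pathologists score as a proliferation marker. It had 19.1, 18.0 and 16.3 FPKM in TGF-β1 libraries 1, 2 and 3, against 14, 9.78 and 17.1 FPKM in control libraries 1, 2 and 3 (log2 change 0.39, 95% interval 0.0036 to 0.78, adjusted p = 0.20). Control library 3 overlapped the TGF-β1 libraries here, and without it MKI67 rose (adjusted p = 0.027). TOP2A, the topoisomerase that untangles sister chromatids, had 48.4, 49.1 and 49.1 FPKM in TGF-β1 libraries 1, 2 and 3, against 35.6, 33.7 and 44.7 FPKM in control libraries 1, 2 and 3, with no overlap (log2 change 0.37, adjusted p = 0.10). Without control library 3, 6 of the 7 genes rose, all but NCAPD2 (background 12.8% of all genes called higher).

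With the GC and length trend removed, NCAPH rose (log2 change 0.30, adjusted p = 0.047) and was the only mitosis gene past the threshold, against a background of 2.54% of all genes called higher and 1.87% called lower. The median log2 change of this group was then 0.23, the highest of the 9 role groups. SMC2 stood at 0.25 (adjusted p = 0.057) and MKI67 at 0.29 (adjusted p = 0.26).

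All 8 kinesins had positive changes (median log2 change 0.24), and 0 passed the threshold. Kinesins are the motors that push spindle poles apart, move chromosomes and assemble the central spindle. KIF23, the motor of the centralspindlin complex at the site of cleavage, had 13.8, 15.5 and 15.4 FPKM in TGF-β1 libraries 1, 2 and 3, against 10.6, 10.4 and 13.9 FPKM in control libraries 1, 2 and 3 (log2 change 0.34, 95% interval 0.085 to 0.60, adjusted p = 0.12). Control library 3 overlapped the TGF-β1 libraries, while controls 1 and 2 lay well below. KIF11 (Eg5), which slides antiparallel microtubules to set up a bipolar spindle, had 20.4, 20.7 and 20.8 FPKM in TGF-β1 libraries 1, 2 and 3, against 15.1, 14.9 and 19.6 FPKM in control libraries 1, 2 and 3 (log2 change 0.31, adjusted p = 0.13). The TGF-β1 libraries of KIF11 lay closer together than the controls and did not overlap them.

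The other kinesins had log2 changes from 0.14 (KIF2C, a microtubule depolymerase, 68.3 FPKM with TGF-β1 against 61.9 FPKM in controls) to 0.29 (KIF20B, a cytokinesis motor, 6.74 FPKM with TGF-β1 against 5.35 FPKM in controls). Without control library 3, KIF4A, KIF11, KIF14, KIF15, KIF20B and KIF23 rose (background 12.8%), and KIF2C and KIF20A did not pass. After removal of the GC and length trend all 8 changes remained positive, with a median of 0.14, and 0 passed.

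Cytokinesis and spindle proteins included further genes near the threshold, with 0 past it. ANLN encodes anillin, the scaffold of the contractile ring, and had 20.5, 20.6 and 23.2 FPKM in TGF-β1 libraries 1, 2 and 3, against 14.9, 14 and 18.5 FPKM in control libraries 1, 2 and 3 (log2 change 0.42, 95% interval 0.17 to 0.68, adjusted p = 0.076). ECT2, the exchange factor that activates RhoA at the cleavage site, had 29, 27.8 and 28.8 FPKM in TGF-β1 libraries 1, 2 and 3, against 22.3, 20.7 and 28.7 FPKM in control libraries 1, 2 and 3 (log2 change 0.26, adjusted p = 0.20). The groups were separate in ANLN, and in ECT2 control library 3 overlapped the TGF-β1 libraries. RACGAP1, the other subunit of centralspindlin, averaged 26.6 ± 1.03 FPKM with TGF-β1, against 23.9 ± 2.23 FPKM in controls (SD, n = 3 each; log2 change 0.15, adjusted p = 0.34). All 3 cytokinesis genes rose without control library 3 (background 12.8%).

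Among spindle proteins, ASPM, a protein of spindle poles whose loss causes microcephaly, had 10.9, 10.8 and 11 FPKM in TGF-β1 libraries 1, 2 and 3, against 7.52, 7.02 and 9.62 FPKM in control libraries 1, 2 and 3 (log2 change 0.41, 95% interval 0.16 to 0.65, adjusted p = 0.078). The TGF-β1 libraries of ASPM were nearly equal and lay above all controls. CKAP2, a microtubule stabiliser, had 16.8, 18.0 and 20.2 FPKM in TGF-β1 libraries 1, 2 and 3, against 13.7, 14.7 and 15.4 FPKM in control libraries 1, 2 and 3 (log2 change 0.31, adjusted p = 0.11). TPX2, which activates Aurora A and nucleates spindle microtubules, was one of the most abundant mitosis genes at 127 FPKM with TGF-β1 against 110.3 FPKM in controls (log2 change 0.20, adjusted p = 0.22), without overlap. Aurora A itself (AURKA) was at 70.0 FPKM with TGF-β1 against 66.3 FPKM in controls (log2 change 0.075, adjusted p = 0.62), and its groups overlapped. HMMR and DLGAP5, both spindle assembly factors, had log2 changes of 0.22 and 0.24, and together with ASPM and CKAP2 they rose without control library 3 (background 12.8%).

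**Figure D3:**
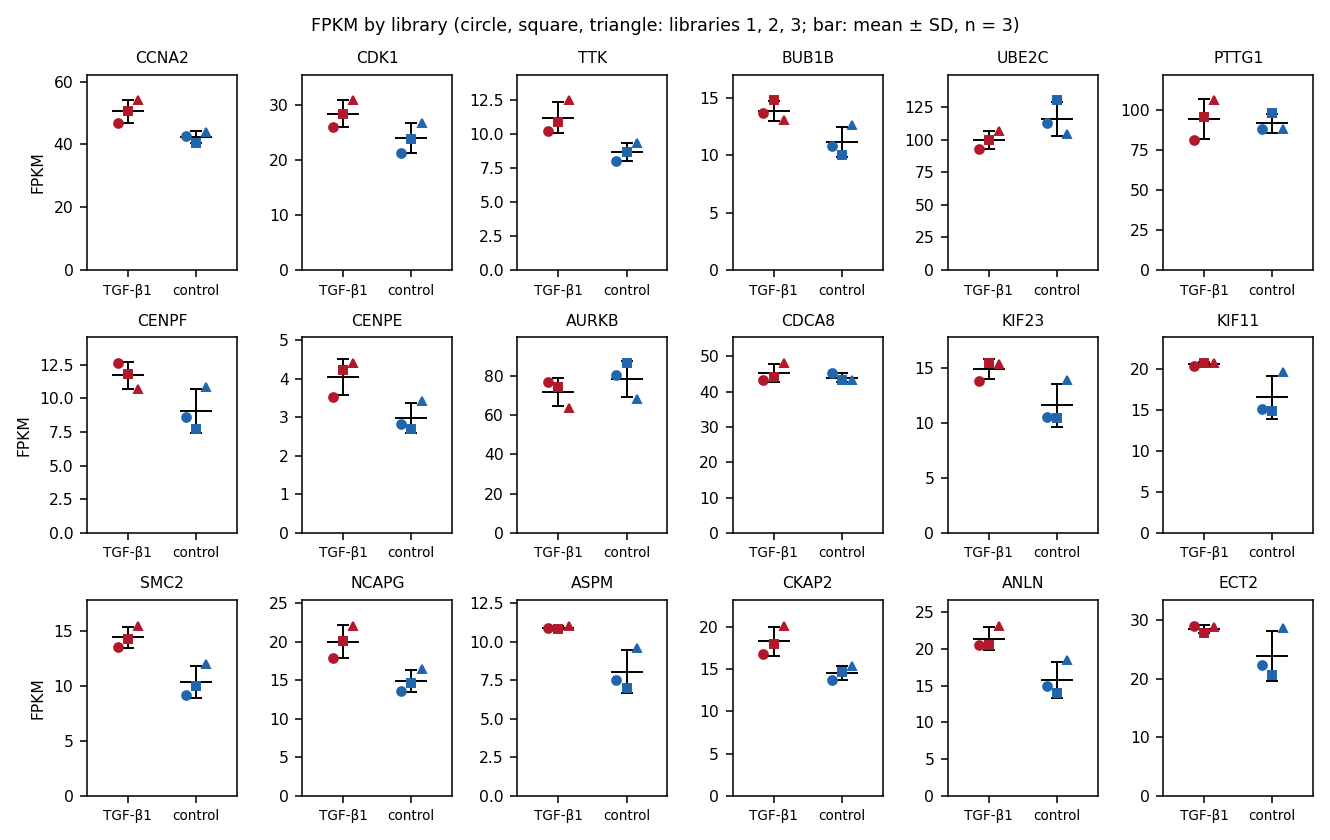
FPKM of 18 mitosis genes, the 2 of each role group with the largest log2 change in either direction, with TGF-β1 libraries left of control libraries (points, 1 per library, bars are mean ± SD, n = 3). SMC2, NCAPG, ASPM, ANLN, KIF11, TTK, BUB1B, CENPE, CCNA2 and CKAP2 are separate between the groups, and the other 8 (CDK1, CENPF, KIF23, ECT2, UBE2C, PTTG1, AURKB and CDCA8) overlap. Over all genes tested, the TGF-β1 libraries all lay above the controls in 14.6% and all below them in 12.5%. The 18 were picked by size of change, which favours separate groups.

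Of the 5 spindle checkpoint genes all changes were positive (median log2 change 0.23), and 0 passed. TTK, the kinase (MPS1) that starts checkpoint signalling at unattached kinetochores, had 10.3, 10.9 and 12.5 FPKM in TGF-β1 libraries 1, 2 and 3, against 8.04, 8.69 and 9.35 FPKM in control libraries 1, 2 and 3 (log2 change 0.33, 95% interval 0.11 to 0.55, adjusted p = 0.099). BUB1B (BubR1), part of the inhibitor of the anaphase-promoting complex, had 13.7, 14.8 and 13 FPKM in TGF-β1 libraries 1, 2 and 3, against 10.8, 10.0 and 12.6 FPKM in control libraries 1, 2 and 3 (log2 change 0.29, adjusted p = 0.13). In both genes the groups were separate. BUB1 was at 26.8 FPKM with TGF-β1 against 22.8 FPKM in controls, MAD2L1 at 19.5 FPKM with TGF-β1 against 17.1 FPKM in controls and BUB3 at 16 FPKM with TGF-β1 against 14.3 FPKM in controls, all with overlapping groups. Without control library 3, TTK, BUB1B and BUB1 rose (background 12.8%).

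The 6 centromere and kinetochore genes had a median log2 change of 0.21, with 5 positive and 0 past the threshold. CENPF, a large protein of the outer kinetochore, had 12.6, 11.8 and 10.7 FPKM in TGF-β1 libraries 1, 2 and 3, against 8.61, 7.71 and 10.8 FPKM in control libraries 1, 2 and 3 (log2 change 0.35, 95% interval 0.079 to 0.61, adjusted p = 0.13). CENPE, the kinetochore motor that carries chromosomes to the spindle equator, was, with NUSAP1, among the least abundant of the tested genes and had 3.53, 4.22 and 4.41 FPKM in TGF-β1 libraries 1, 2 and 3, against 2.81, 2.70 and 3.43 FPKM in control libraries 1, 2 and 3 (log2 change 0.34, adjusted p = 0.11). The groups were separate in CENPE but not in CENPF, where control library 3 overlapped the TGF-β1 libraries. NUF2, NDC80 and SPC25, subunits of the microtubule-binding NDC80 complex, had log2 changes of 0.22, 0.21 and 0.18 (adjusted p = 0.19, 0.22 and 0.33). CENPA, the histone variant that marks the centromere, differed by less than the spread of its libraries, at 20.6 ± 1.48 FPKM with TGF-β1, against 21.1 ± 0.749 FPKM in controls (SD, n = 3 each; log2 change -0.038, adjusted p = 0.81).

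Mitotic entry genes had changes of both signs, 6 of 8 of them positive, with a median log2 change of 0.067 and 0 past the threshold. CCNA2 (cyclin A2), which acts in S phase and G2, had 46.7, 50.7 and 54.1 FPKM in TGF-β1 libraries 1, 2 and 3, against 42.6, 40.4 and 44.0 FPKM in control libraries 1, 2 and 3 (log2 change 0.25, 95% interval 0.037 to 0.46, adjusted p = 0.15). CDK1, the mitotic kinase, had 26.0, 28.3 and 30.8 FPKM in TGF-β1 libraries 1, 2 and 3, against 21.3, 23.9 and 26.6 FPKM in control libraries 1, 2 and 3 (log2 change 0.24, adjusted p = 0.20). The groups were separate in CCNA2, and in CDK1 control library 3 reached into the TGF-β1 range. Both rose without control library 3, CCNA2 with an adjusted p of 0.046 and CDK1 with 0.042.

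CCNB1 (cyclin B1), among the most abundant mitosis genes, averaged 187 ± 27.5 FPKM with TGF-β1, against 162 ± 11.4 FPKM in controls (SD, n = 3 each; log2 change 0.20, adjusted p = 0.32), and its groups overlapped. CCNB2 (cyclin B2) was at 33.4 FPKM with TGF-β1 against 32.5 FPKM in controls (log2 change 0.039, adjusted p = 0.80). FOXM1, the transcription factor of G2 genes, was at 46.7 FPKM with TGF-β1 against 43.8 FPKM in controls (log2 change 0.089, adjusted p = 0.53) with separate groups. The kinase PLK1 and the phosphatases CDC25B and CDC25C, which switch CDK1 on, had log2 changes of -0.04, -0.061 and 0.044 with adjusted p-values of 0.81, 0.71 and 0.78. Their 95% intervals all lay between -0.28 and 0.25.

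The anaphase-promoting complex genes and the chromosomal passenger complex were the groups with medians near 0. UBE2C, the ubiquitin-conjugating enzyme that works with the anaphase-promoting complex, had 92.8, 99.6 and 107 FPKM in TGF-β1 libraries 1, 2 and 3, against 112, 130.2 and 105 FPKM in control libraries 1, 2 and 3 (log2 change -0.21, 95% interval -0.46 to 0.037, adjusted p = 0.26). PTTG1 (securin), which the complex destroys to release the chromosomes, had 81.1, 95.4 and 106 FPKM in TGF-β1 libraries 1, 2 and 3, against 88.3, 98.1 and 88.1 FPKM in control libraries 1, 2 and 3 (log2 change 0.035, adjusted p = 0.86). The groups overlapped in both. CDC20, the activator of the complex and the most abundant mitosis gene by mean level, averaged 194 ± 8.72 FPKM with TGF-β1, against 195 ± 14.5 FPKM in controls (SD, n = 3 each; log2 change -0.0091, adjusted p = 0.96).

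AURKB, the kinase of the passenger complex that corrects faulty attachments, had 76.9, 74.2 and 63.5 FPKM in TGF-β1 libraries 1, 2 and 3, against 80.4, 86.5 and 68.4 FPKM in control libraries 1, 2 and 3 (log2 change -0.13, 95% interval -0.39 to 0.13, adjusted p = 0.49). CDCA8 (borealin), a targeting subunit, had 43.3, 44.2 and 48.1 FPKM in TGF-β1 libraries 1, 2 and 3, against 45.3, 43.3 and 43.3 FPKM in control libraries 1, 2 and 3 (log2 change 0.038, adjusted p = 0.81). Neither gene was separate between the groups. BIRC5 (survivin) and INCENP, the other subunits, had log2 changes of 0.0073 and -0.0062 (adjusted p = 0.97 and 0.98). None of these 7 genes rose or fell without control library 3, where UBE2C stood at a log2 change of -0.28 (adjusted p = 0.068) and AURKB at -0.22 (0.13).

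The size of the change moved with the GC content of the transcripts. Across the 51 mitosis genes the Spearman correlation of log2 change with GC content was -0.73, and with exon length 0.66, beside -0.63 and 0.29 across 11292 tested genes with a gene model, all from the same 6 libraries. The 23 mitosis genes at or below 42% GC were all positive with a median log2 change of 0.31, beside 0.17 for all genes of that GC range. For the 18 from 42 to 50% GC the median was 0.15, beside 0.076 for all such genes. For the 10 above 50% GC it was -0.0076 with 4 positive, beside -0.14 for all such genes.

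In each of the 3 GC ranges the median of the mitosis genes was thus above that of all genes. GC content and exon length were not matched within a range: the mitosis genes reached 59.3% GC and all genes tested 86.4%. With the GC and length trend removed from each library, their medians were 0.12, 0.12 and 0.11 from low to high GC, and the median over the 51 was 0.11 with 47 positive, beside 0.0033 over all genes. The Spearman correlation of log2 change with GC content across the 51 was then 0.035, but with exon length it was still 0.40. Across 11292 tested genes with a gene model these were 0.0059 and -0.0065. AURKB, CDC20, CDC25B, CENPA, INCENP and PLK1 then had positive changes and CCNB2 and MAD2L1 negative ones. The median deviation per library was 0.059, 0.062 and 0.063 in TGF-β1 libraries 1, 2 and 3, against -0.082, -0.077 and -0.019 in control libraries 1, 2 and 3. Control library 3 still lay nearest to the TGF-β1 libraries. Without it, and with the trend removed, ANLN, KIF23, NCAPH, SMC2 and SMC4 rose, against a background of 3.77% of all genes called higher. What part of the changes belongs to GC content was not tested, since removing the trend also removes any effect of the treatment that follows GC content.

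**Figure D4:**
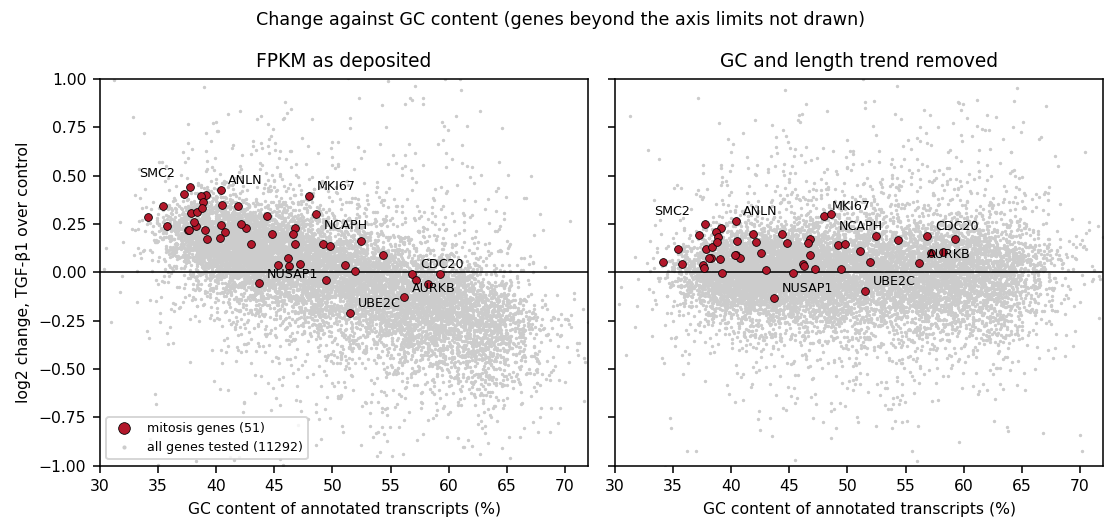
Log2 change, TGF-β1 over control, against the GC content of annotated transcripts in percent, for the 51 mitosis genes (red) and all tested genes with a gene model (grey), with FPKM as deposited at left and after removal of the GC and length trend at right. At left the mitosis genes fall with GC content from SMC2 and ANLN to AURKB and UBE2C, and at right most lie above 0 at every GC content with a median of 0.11.

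The number of mitosis genes past the threshold depended on the setting. With all 6 libraries it was 5 of 49 tested with a minimum of 5 FPKM (background 2.67%) and 5 of 51 among protein-coding genes alone (background 2.95%), in both settings ANLN, ASPM, NCAPG, SMC2 and SMC4. It was 1, SMC2, when libraries were scaled by upper quartile or by total fragments (background 1.63% in each). SMC2 thus passed in these 4 settings and by voom, with a log2 change of 0.44 to 0.48.

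**Figure D5:**
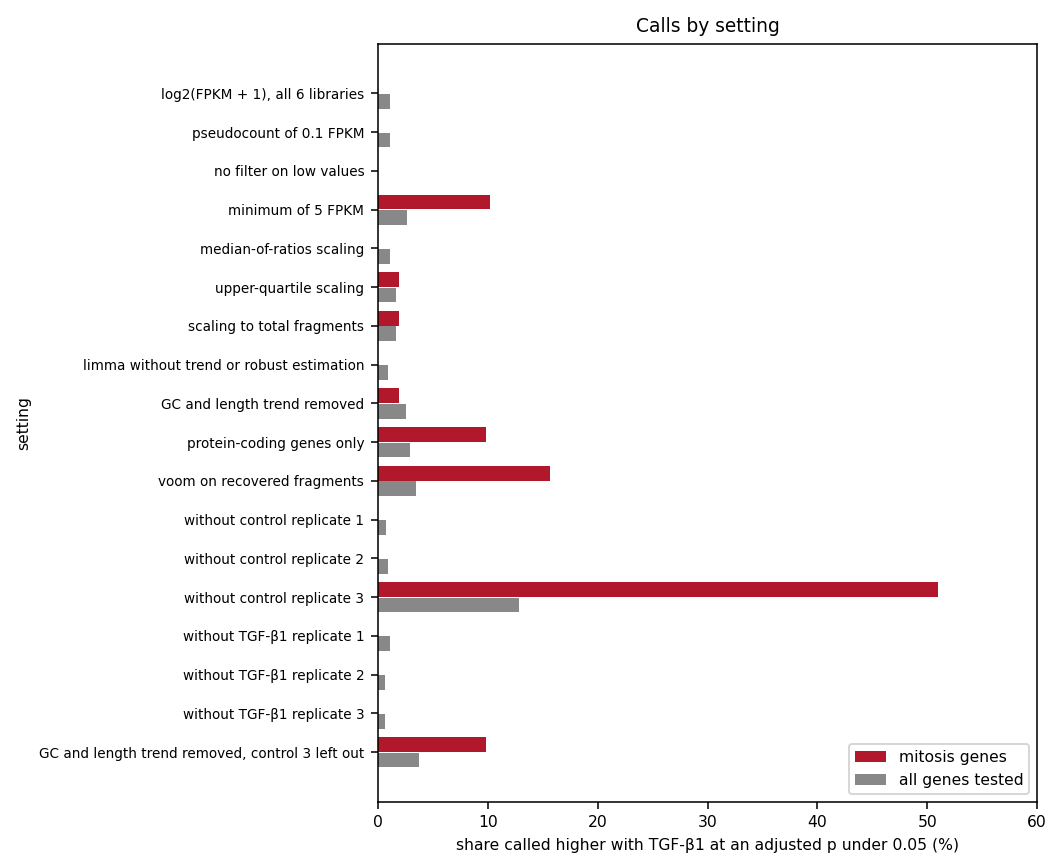
Share of the tested mitosis genes (red) and of all tested genes (grey) past an adjusted p of 0.05 and higher with TGF-β1, in percent, by setting of the processing fitted by limma. Settings with the replicate number as a block are not drawn. The red bar stands for 0 of 51 genes in the fit to log2(FPKM + 1) of all 6 libraries, 8 of 51 with voom and 26 of 51 without control library 3 (named control replicate 3 there).

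Other genes of mitosis outside the 52 were counted in the same way. Of 67 such genes, 2 rose and 0 fell (background 1.14% and 1.29%), with 51 positive changes and a median log2 change of 0.20. By voom 10 rose and 1 fell (background 3.51% and 5.83%). Among protein-coding genes alone 9 rose and 0 fell (background 2.95% and 5.47%). WEE1, the kinase that holds CDK1 inactive, averaged 10.7 ± 0.948 FPKM with TGF-β1, against 7.51 ± 0.689 FPKM in controls (SD, n = 3 each; log2 change 0.46, adjusted p = 0.041). KNL1, a kinetochore scaffold, averaged 5.82 ± 0.225 FPKM with TGF-β1, against 4.07 ± 0.458 FPKM in controls (SD, n = 3 each; log2 change 0.43, adjusted p = 0.044). WEE1 did not pass without control library 1 or 2 or TGF-β1 library 2 or 3 (adjusted p = 0.11 to 0.21), nor KNL1 without any one library other than control library 3 (0.054 to 0.20). Without control library 3, 28 rose and 5 fell. After the trend on GC content and length was subtracted none passed by limma, with 32 higher and 0 lower at an unadjusted p below 0.05 (background 10.9% and 10.6%) and a median of 0.14.

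Subunits and regulators of the anaphase-promoting complex gave no call among 15 tested of 16 by limma or by voom. At an unadjusted p below 0.05 by limma, 2 were higher and 1 lower (background 11.2% and 13.9%). The median log2 change was 0.099. CDC27, a core subunit, and FBXO5 (EMI1), an inhibitor, had log2 changes of 0.27 and 0.27 (adjusted p = 0.15 and 0.16). Of the 15, 2 rose and 2 fell without control library 3 (background 12.8% and 16.8%). The list of DREAM, MuvB and B-MYB genes also held NFYA, NFYB and NFYC, the subunits of NF-Y, which binds the CCAAT box. Of its 15 genes 14 were tested and 0 passed by limma, with a median log2 change of 0.11. At an unadjusted p below 0.05, 2 were higher and 0 lower (background 11.2% and 13.9%). By voom 1 was higher (background 3.51%). The pocket protein p107 (RBL1) and the MuvB subunit LIN9 had log2 changes of 0.35 and 0.32 (adjusted p = 0.11 and 0.11), and without control library 3, 4 of the 14 rose and 0 fell. MYBL2 (B-MYB) was as abundant as the most abundant mitosis genes, at 212 ± 12.3 FPKM with TGF-β1, against 199 ± 19.5 FPKM in controls (SD, n = 3 each; log2 change 0.10, adjusted p = 0.58), and rose with the GC and length trend removed (log2 change 0.33, adjusted p = 0.011).

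Among 40 genes of G1/S and DNA replication 1 rose and 0 fell (background 1.14% and 1.29%). Changes were positive in 31, and the median log2 change was 0.15, beside 0.22 for the mitosis genes. CDK6, a kinase of G1, was the one that rose, at 11.9 ± 0.391 FPKM with TGF-β1, against 7.49 ± 1.28 FPKM in controls (SD, n = 3 each; log2 change 0.61, adjusted p = 0.016), and it did not pass without control library 1 or 2 or TGF-β1 library 3 (adjusted p = 0.053 to 0.068). Of the 40, 13 rose and 1 fell without control library 3. With the GC and length trend removed 6 of the 40 rose (background 2.54%) and the median was 0.16, beside 0.11 for the mitosis genes. E2F1, the activator of S phase genes, was at 45.6 ± 0.233 FPKM with TGF-β1, against 43.8 ± 6.71 FPKM in controls (SD, n = 3 each; log2 change 0.067, adjusted p = 0.73) and rose with the trend removed (log2 change 0.35, adjusted p = 0.014).

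Genes that restrain the cycle were tested for 14 of 15, with 1 higher and 0 lower (background 1.14% and 1.29%). Their median log2 change was -0.024, and without control library 3, 2 rose and 5 fell. GADD45B, a stress-induced gene that TGF-β is known to induce, rose to 19.2 ± 1.99 FPKM with TGF-β1, against 10.9 ± 2.19 FPKM in controls (SD, n = 3 each; log2 change 0.78, adjusted p = 0.014). The CDK inhibitors through which TGF-β is known to act in epithelial cells did not pass. CDKN1A (p21) had 88.6, 85.0 and 96.6 FPKM in TGF-β1 libraries 1, 2 and 3, against 103, 108 and 84.6 FPKM in control libraries 1, 2 and 3 (log2 change -0.13, 95% interval -0.38 to 0.13, adjusted p = 0.50). CDKN2B (p15) was low, with 1.65, 1.21 and 1.57 FPKM in TGF-β1 libraries 1, 2 and 3, against 1.31, 1.19 and 1.17 FPKM in control libraries 1, 2 and 3 (log2 change 0.15, 95% interval -0.084 to 0.39, adjusted p = 0.37). The groups overlapped in both, and the 95% intervals of both genes lay within a 2-fold change. MYC, whose repression is part of that arrest, fell to 25.3 ± 1.58 FPKM with TGF-β1, against 33.7 ± 1.69 FPKM in controls (SD, n = 3 each; log2 change -0.40, 95% interval -0.61 to -0.20, adjusted p = 0.049), and it did not pass once the trend on GC content and length was subtracted (adjusted p = 0.13) or when any one library other than control library 3 was left out (0.075 to 0.18).

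Shared exons limit what can be said of a few genes, since the sources used here do not give the strand setting of the authors' counting. Of the 52, 32 share no exon base with another gene of GENCODE release 29. PRC1 shares 58.4% of its exon bases, with AC068831.7 on the same strand and PRC1-AS1 on the other, so its listed level is uncertain. NUSAP1, a microtubule bundler that shares 62.2% with AC087721.2, had 3.14, 3.96 and 3.91 FPKM in TGF-β1 libraries 1, 2 and 3, against 3.56, 4.23 and 3.76 FPKM in control libraries 1, 2 and 3 (log2 change -0.057, adjusted p = 0.75), with overlapping groups. NCAPG shares 33.1% of its exon bases with LCORL, SMC4 25.6% with TRIM59 and IFT80, FOXM1 15.9% with ITFG2, and PLK1 and BUB1B between 10 and 13%.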

How the data were processed

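Per the labels, total RNA of T24 cells was sequenced as read pairs. The submitters' processing notes name the tools HISAT2 (2.0.5) and featureCounts (1.5.0-p3) and the build hg38. Strand setting, kit and annotation release: not given in the sources used here. The authors deposited FPKM, and 11 rows of mapping totals were left out. Fragments recovered with the exon lengths of GENCODE release 29 were whole to within 0.05 for 126560 of 126561 values (99.999%). The FPKM denominators equalled a median-of-ratios scaled total, which means that the authors' FPKM were scaled between libraries before deposit. No library duplicated another of its group, and pairs across the groups were not checked for this.

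Gene tests used limma 3.58.1 (R 4.3.3, trend and robust) on log2(FPKM + 1) for genes that reached 1 FPKM in 3 or more libraries, with treatment as the only term, and every adjusted p printed comes from it unless another setting is named. Voom (limma) tested the recovered fragments. The GC and length trend was a loess fit per library over all tested genes. The scripts were tested on simulated data.

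The 52 genes and the other lists were chosen with earlier results of these data known. Values in every library are given for the 2 genes of each role group with the largest log2 change in either direction (genes past the threshold would come first), and genes of the other lists are named if past the threshold or else as the 2 largest. CDKN1A, CDKN2B, MYC, E2F1, RB1, MYBL2, ACTB and GAPDH were fixed beside these. RB1 had log2 change 0.29, adjusted p = 0.16, ACTB log2 change 0.051, adjusted p = 0.81, and GAPDH log2 change -0.25, adjusted p = 0.24. The library values of SMC4, NCAPH, MKI67, TOP2A and NUSAP1 were added after their values were seen.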

Additional observations from a re-analysis of the deposited data

How the results depend on the processing

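No setting called a mitosis gene lower or gave a negative median. Mitosis genes called higher numbered 0 with all libraries, a pseudocount of 0.1 FPKM, no filter on low values, median-of-ratios scaling and limma without trend or robust estimation. They numbered 1 (SMC2) with upper-quartile scaling and with scaling to total fragments, 5 with a minimum of 5 FPKM, 5 with protein-coding genes only, 8 with voom, 1 (NCAPH) after removal of the GC and length trend, and 5 with that trend removed and control 3 left out, a setting chosen after seeing the data. Leaving out 1 library gave 0 to 26, the 26 without control library 3 and 0 without any other. The median log2 change, 0.22, was 0.11 with the trend removed (0.14 also without control library 3) and 0.17 to 0.26 over the leave-one-out fits. The cause of these differences was not tested.

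Over all genes 130 were called higher and 147 lower. These counts were 11 and 4 with no filter, 179 and 321 with a minimum of 5 FPKM, 185 and 225 with upper-quartile scaling, 185 and 221 with total fragments, 289 and 213 with the trend removed, 421 and 406 with it removed and control 3 left out, 295 and 547 with protein-coding genes only, and 396 and 658 with voom. Leaving out 1 library gave 72 to 1435 higher and 39 to 1872 lower, both highest without control library 3.

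The replicate number as a block gave 4 mitosis genes higher (ANLN, NCAPG, SMC2 and TTK, against 2.19% of all genes), with 249 higher and 518 lower over all genes. The replicate block with the trend removed gave 1 (NCAPH), a median of 0.11, and 263 higher and 262 lower. Same-numbered libraries correlated at 0.25, -0.071 and 0.17 in their deviations, and TGF-β1 library 2 correlated best with control library 3, so the numbers were not taken to pair the samples. The tested mitosis genes had at least 193 fragments in each library, and how far depth limits the calls was not tested.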
